A study of Mus musculus with 24 samples.

Results

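MIN6 is a mouse pancreatic β-cell line that was established from an insulinoma of a transgenic mouse in which a viral T antigen is driven by an insulin promoter, and it is widely used because it still secretes insulin in response to glucose. The untreated MIN6 libraries were the 12 of the 24 RNA-sequencing libraries of the series whose labels give the treatment as untreated. All 12 came from cells labelled as β-cells of wild-type (WT) genotype, at a passage below 25, that were held at 5.6 mM glucose in serum-containing medium for 24 h and then for another 24 h without drug. The methods give a medium of higher glucose for maintaining the line, and the sources name different library kits. The remaining libraries, from cells given verapamil, were not compared here. The methods describe 4 sets of independent experiments with 3 replicates each, while the description of the series counts every library as an independent experiment. Which libraries form a set is stated nowhere in so many words; here the leading digit of each description was taken as the set. The names of the columns C11 and C12 of the count table fit more than 1 sample, so these libraries carry no replicate number and were placed in set 4 by elimination, beside replicate 10. All values come from 1 tumour-derived cell line in culture, and p-values over libraries measure only the spread between these libraries. In bulk RNA, a gene expressed weakly by every cell and a gene expressed strongly by a few cells cannot be told apart.

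The β-cell couples glucose metabolism to insulin release. Glucose enters through facilitative transporters and is metabolised, and the ATP made from it closes ATP-sensitive potassium channels, which depolarises the membrane and opens voltage-gated calcium channels. Calcium then triggers the exocytosis of granules in which proinsulin has been cut to insulin by prohormone convertases. Signals that raise cyclic AMP, such as glucagon-like peptide 1, strengthen this release. Some genes that almost every other tissue expresses are kept low in β-cells and are called disallowed genes.

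The count table held 12310 genes, of which 10416 were annotated as protein-coding and 1806 as pseudogenes, and 12293 had a count above 0 in all 12 libraries. Total counts per library ranged from 12590476 to 32360171 with a median of 26642648, and the shallowest library was replicate 9. Read levels are given as CPM, the counts of a gene scaled by the total of its library in the table, so that 1 CPM stood for 12.6 to 32.4 counts. For comparisons between genes, counts were divided by the length of the merged exons of each gene and scaled to the same total in each library; these length-scaled values are called TPM here and are not comparable with TPM over a whole annotation. Levels are means ± SD over the 12 libraries unless stated otherwise, and the coefficient of variation (CV) is the SD of the CPM as a percentage of its mean. The correlation of log2 CPM of each library with the others had a median of 0.990 to 0.994, lowest for replicate 9. As a check for a library deposited more than once, the counts of all 66 pairs of libraries were compared, and the lowest chi-square statistic per degree of freedom was 5.73, so that no pair was counted as 1 sample.

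Transcripts of secretory pathway and housekeeping genes stood at the head of the ranking by length, and the most abundant of 10237 genes that were neither pseudogenes nor predicted genes was Nnat, at 7572 ± 431 TPM. Nnat encodes neuronatin, a small imprinted membrane protein of the endoplasmic reticulum that takes part in the processing of preproinsulin, and it ranked first in each of the 12 libraries, at 6877 to 8206 TPM. With the longest transcript in place of the merged exons it ranked 2. Cpe, the carboxypeptidase that trims the basic residues left after prohormone cleavage, came second at 6131 ± 272 TPM. They were followed by Arf1, a GTPase of vesicle budding, at 4841 ± 145 TPM, by Actb, the cytoskeletal β-actin, at 4362 ± 151 TPM, and by Calr, a calcium-binding chaperone, at 4336 ± 217 TPM. The next were Ubb at 3915 TPM, Gnas at 3887 TPM, Eef1a1 at 3545 TPM and Hint1 at 3447 TPM.

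Chga, the granule protein chromogranin A, ranked 10 at 3241 ± 301 TPM, and Ins2 ranked 11 at 3225 ± 416 TPM. The values of these neighbours overlapped, and the rank of Ins2 lay between 6 and 14 in single libraries. The other genes among the 20 highest were Pdia3 (3162 TPM) and Hspa5 (2104 TPM), both chaperones of the endoplasmic reticulum, the signalling genes Ywhae (2691 TPM) and Gnb2 (2603 TPM), the mitochondrial genes Cox8a (2442 TPM) and Slc25a5 (2122 TPM), the ribosomal genes Rpl32 (2375 TPM) and Fau (2345 TPM), and Maged1 (2083 TPM). Per read rather than per length, Gnas led by a wide margin at 13696 ± 550.1 CPM, ahead of Cpe at 5037 CPM. Gnas encodes the stimulatory G protein α-subunit within a complex imprinted locus, and 2457 of its 11186 exon bases overlap genes on the opposite strand, so that its count may hold their reads, because no source used here gives the strand setting of the counting.

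**Figure D1:**
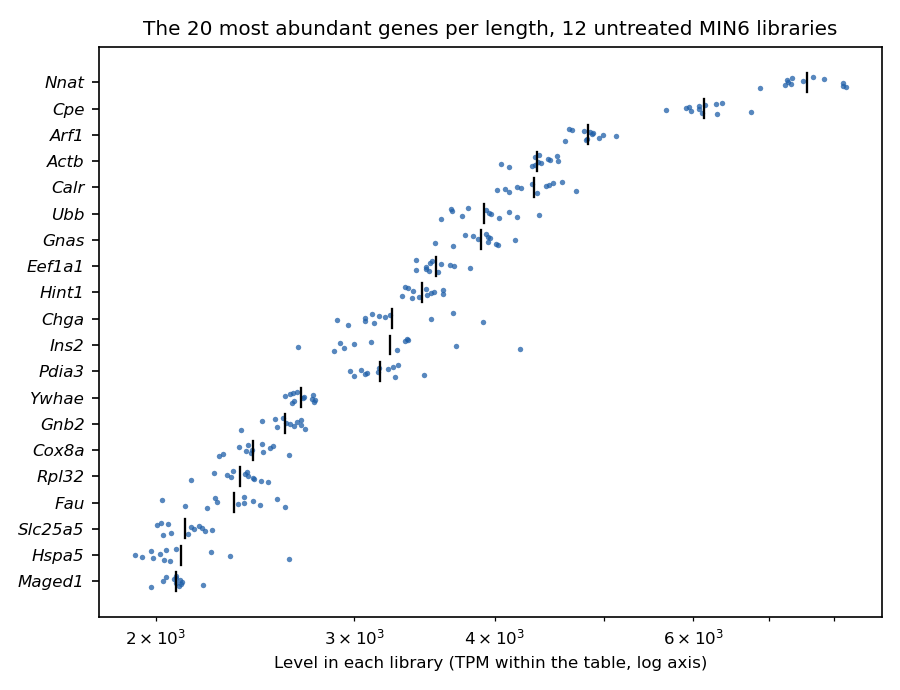
Level of the 20 most abundant genes per length in the 12 untreated libraries (horizontal log axis, TPM within the table; points, libraries; black bars, means). Nnat and Cpe lie clear of the genes below them in the plot, whereas the libraries of Chga and Ins2 overlap and those of Ins2 spread from 2676 to 4215 TPM.

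No small group of genes dominated the counts of the table. Genes outside the table are not part of these shares, and only 3 of 15 mitochondrially encoded genes were measured. The first 10 genes by CPM held 4.80% to 5.17% of all counts, the first 100 held 19.3% to 19.9%, and 678 to 706 genes were needed to reach 50%. Of the 10237 ranked genes, 95 reached 1000 TPM, 1496 reached 100 TPM, 5945 reached 10 TPM and 693 stayed under 1 TPM. The protein-coding genes had a median of 15.0 TPM, and of these 10416 genes 9704 reached 1 TPM, 6035 reached 10 TPM and 1520 reached 100 TPM. The counts for the gene groups below are to be read against these shares. Counts of Ins1 and Ins2 together summed to 1823 ± 226 CPM, with a lowest, median and highest library of 1452, 1792 and 2222 CPM.

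Among hormone and secreted peptide genes, 14 of 34 listed genes were measured, and they fell into a high and a low group with no member between them. The high group held 7 genes above 100 TPM, namely Ins2, Ins1, Npy, Vgf, Gcg, Nucb2 and Igf2. The low group held Sct, Iapp, Pthlh, Cartpt, Cck, Tac1 and Gdf15, between 1.43 TPM and 7.68 TPM, below the median protein-coding gene. Sst, Ppy, Pyy and Ghrl, the hormone genes of the δ-, PP- and ε-cells, were not analysed here.

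Ins2 (chr7:142678656-142743381, minus strand, GRCm38, an interval that includes extended transcripts of the annotation), the mouse counterpart of the human insulin gene, had a lowest, median and highest value of 2676, 3187 and 4215 TPM, and its counts ran from 15614 to 43528. Replicate 10 was the highest library and replicate 8 the lowest. Ins1 (chr19:52264297-52265476, plus strand), the second mouse insulin gene, had a lowest, median and highest value of 936, 1425 and 2267 TPM, with replicate 2 highest and again replicate 8 lowest. Its CV of 22.2% was the eighth largest among the 2191 protein-coding genes with at least 100 CPM, against 12.0% for Ins2. Ins2 exceeded Ins1 in 12 of 12 libraries, by a mean log2 ratio of 1.16 ± 0.27, or 2.23-fold per kilobase (permutation test over all 4096 sign flips, adjusted p = 0.000586). The transcripts of both genes are 90.4% identical over 406 bases, so that reads from this stretch may be hard to assign.

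Npy (chr6:49822710-49829507) encodes neuropeptide Y, a neuronal peptide also made by immature islet cells, and at 1041 ± 46.1 TPM it ranked 87, with a lowest, median and highest value of 989, 1026 and 1124 TPM. Vgf, the precursor of neuroendocrine peptides, reached 865 ± 76.3 TPM. Gcg (chr2:62474530-62483650, minus strand), the preproglucagon gene that marks α-cells, reached 398 ± 20.6 TPM, with a lowest, median and highest value of 373, 398 and 437 TPM and counts of 2470 to 6107. Npy and Gcg had smaller CVs than the insulin genes, at 5.00% and 5.02%. Nucb2, the precursor of nesfatin, was at 277 ± 40.1 TPM and Igf2, an imprinted growth factor, at 135 ± 8.77 TPM. For Igf2, 3694 of 5723 exon bases overlap other genes, so its level is uncertain.

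Iapp (chr6:142298423-142303961), which encodes islet amyloid polypeptide, the peptide co-secreted with insulin by normal β-cells, was measured at only 7.21 ± 2.05 TPM. Its counts were 22 to 84 per library, its levels in TPM had a lowest, median and highest value of 4.65, 6.85 and 10.95, and its rank among the 10237 ranked genes lay between 5819 and 7418. The counting error alone gave a CV of 13.2% at this depth, against an observed 28.2%. Sct (secretin) had 1.56 CPM, Cck (cholecystokinin) 1.19 CPM and Tac1 (the substance P precursor) 1.70 CPM, all near the depth at which counting error is large.

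**Figure D2:**
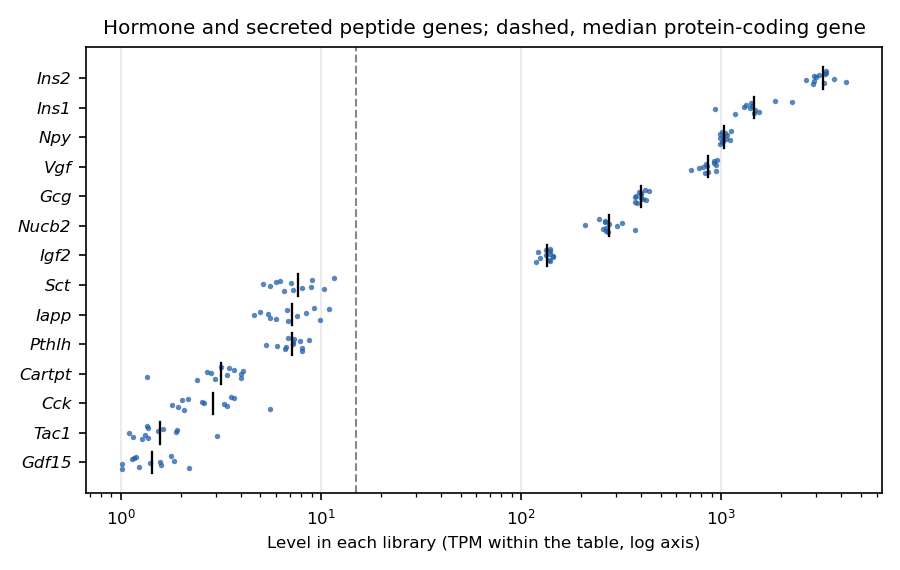
Level of the 14 measured hormone and secreted peptide genes in each of the 12 untreated libraries (horizontal log axis, TPM within the table; points, libraries; black bars, means; dashed line, median protein-coding gene at 15.0 TPM). The 7 genes at the top all lie above 100 TPM in every library, and the 7 genes at the bottom lie below the dashed line in every library.

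The 250 bases upstream of the transcription start of 4 of these genes are shown because the genes differ in level from 7.21 TPM for Iapp to 1469 TPM for Ins1 (RefSeq, GRCm38.p6). Ins1 lies at chr19:52264047-52264296 (plus strand), Gcg at chr2:62483654-62483903 (minus strand), Iapp at chr6:142298175-142298424 (plus strand) and Npy at chr6:49822460-49822709 (plus strand). Capitals mark CATCTG, a form of the E-box that basic helix-loop-helix factors such as NEUROD1 bind, and TAAT, the core bound by homeodomain factors such as PDX1, each searched on both strands.
Ins1: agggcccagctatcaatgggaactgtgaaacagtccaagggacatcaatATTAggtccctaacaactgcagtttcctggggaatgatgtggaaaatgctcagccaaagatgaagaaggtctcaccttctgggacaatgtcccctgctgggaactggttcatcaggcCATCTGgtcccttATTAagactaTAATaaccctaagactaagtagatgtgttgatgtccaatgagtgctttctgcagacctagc
Gcg: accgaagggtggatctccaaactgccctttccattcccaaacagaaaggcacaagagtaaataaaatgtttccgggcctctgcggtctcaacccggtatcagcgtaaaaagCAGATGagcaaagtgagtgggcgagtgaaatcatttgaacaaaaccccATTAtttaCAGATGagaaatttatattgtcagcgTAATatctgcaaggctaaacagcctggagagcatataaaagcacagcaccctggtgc
Iapp: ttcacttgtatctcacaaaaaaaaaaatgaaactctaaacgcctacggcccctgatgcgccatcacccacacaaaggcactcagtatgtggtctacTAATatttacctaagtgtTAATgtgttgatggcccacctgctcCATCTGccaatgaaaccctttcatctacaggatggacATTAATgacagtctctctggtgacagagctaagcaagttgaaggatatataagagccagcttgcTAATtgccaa
Npy: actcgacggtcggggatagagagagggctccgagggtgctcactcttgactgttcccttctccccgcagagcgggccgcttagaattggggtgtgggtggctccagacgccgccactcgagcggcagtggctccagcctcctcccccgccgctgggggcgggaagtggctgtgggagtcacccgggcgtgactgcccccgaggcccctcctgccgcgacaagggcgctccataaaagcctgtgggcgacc
The Ins1 window held 1 CATCTG site, whose outer end lies 84 bases before the start, and 3 TAAT sites. Gcg held 2 and 2, Iapp 1 and 5 (2 of these overlap), and Npy none of either. Of 32851 mouse windows of the same length, 14.4% held at least 1 CATCTG site and 1.32% at least 2, whereas TAAT was found in 54.9% and at least 3 times in 17.3%. Whether these letters relate to the level of a gene was not tested. A match is a description of the sequence, and binding was not measured.

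The machinery that turns prohormones into hormones was expressed well above the median gene, with 17 of 19 measured processing genes over 10 TPM and a group median of 144 TPM. Pcsk2, a prohormone convertase of granules, was at 1518 ± 67.6 TPM and Pcsk1, its companion convertase, at 152 ± 27.5 TPM. Pcsk2 exceeded Pcsk1 in 12 of 12 libraries, 10.1-fold per kilobase (mean log2 ratio 3.34 ± 0.25, permutation test, adjusted p = 0.000586). Pcsk1 was also among the less steady genes of its level, with a lowest, median and highest value of 129, 145 and 217 TPM and a CV of 17.2%, against 4.03% for Pcsk2. Chaperones of the endoplasmic reticulum followed, with Hspa5 (BiP) at 2104 ± 202 TPM, Hsp90b1 at 1315 ± 112 TPM and Pdia4 at 468 ± 32.3 TPM. The β-cell oxidoreductase Ero1lb reached only 37.1 ± 8.67 TPM and had a CV of 23.0%, with a lowest, median and highest value of 24.2, 35.5 and 50.7 TPM. The pseudogene Gm18562 is 98.05% identical to Ero1lb over 921 bases, so the level and spread of Ero1lb are uncertain. Pam, which amidates peptide hormones, was at 71.2 ± 3.82 TPM.

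All but 1 of the 21 measured granin and granule genes exceeded 10 TPM, 17 exceeded 100 TPM, and the median of the group was 237 TPM. After Chga came Scg2 (a secretogranin) at 1626 ± 126 TPM, Scg5 (the chaperone of the Pcsk2 product) at 1551 ± 75.4 TPM and Chgb (chromogranin B) at 1023 ± 88.0 TPM. Chga exceeded Chgb in every library, 3.17-fold per kilobase (permutation test, adjusted p = 0.000586). Slc30a8, the zinc transporter that loads granules with the zinc of insulin crystals, was at 790.4 ± 73.3 TPM. The tyrosine phosphatase-like granule proteins Ptprn and Ptprn2 were at 472 ± 26.7 TPM and 137 ± 6.31 TPM.

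For exocytosis, 30 of 31 measured genes exceeded 1 TPM and the group median was 45.0 TPM. The calcium sensor Syt7 led at 835 ± 22.7 TPM, far above the sensor Syt9, which it exceeded 50.6-fold per kilobase in 12 of 12 libraries (permutation test, adjusted p = 0.000586). The SNARE genes Vamp2, Snap25 and Stx1a were at 210.1 ± 7.07 TPM, 150.4 ± 8.31 TPM and 130.4 ± 7.61 TPM. These 4 genes had CVs between 3.01% and 5.69%. Rab3a, a GTPase of granules, stood apart with 27.6 ± 11.7 TPM, a lowest, median and highest value of 13.8, 27.5 and 43.0 TPM and a CV of 42.1%. Exons of Rab3a overlap Mpv17l2 on the opposite strand, so its count may hold reads of that gene.

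Of the islet transcription factors, 30 of 35 were measured, every measured member exceeded 1 TPM, and 14 exceeded 100 TPM against 1496 of 10237 over all ranked genes. The most abundant was Mafa, a late activator of insulin genes, at 817 ± 55.2 TPM, with a lowest, median and highest value of 725, 808 and 899 TPM. It was followed by Neurod1 at 517 ± 22.2 TPM, Foxa2 at 391 ± 18.7 TPM, Insm1 at 344 TPM, Isl1 at 325 ± 11.01 TPM and Pax6 at 293 ± 12.7 TPM. Pdx1, the master regulator of pancreas and β-cell identity, was at 124 ± 6.08 TPM, and Nkx6-1, which keeps β-cells from taking other islet fates, was at 63.1 ± 3.71 TPM. Nkx2-2 exceeded Nkx6-1 3.09-fold and Foxa2 exceeded Foxa1 96.5-fold per kilobase, each in 12 of 12 libraries (permutation test, adjusted p = 0.000586 for both). The median CV of the group was 5.49%.

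Of 6 measured genes of glucose entry and phosphorylation, 3 exceeded 10 TPM. Slc2a2, the low-affinity transporter typical of rodent β-cells, was at 95.7 ± 14.4 TPM, and Slc2a1, a ubiquitous glucose transporter, was at 95.1 ± 11.05 TPM. Slc2a2 had a lowest, median and highest value of 80.4, 91.5 and 134 TPM, and Slc2a1 had 79.98, 94.2 and 115 TPM. Slc2a2 was the higher of both in 5 of 12 libraries, with a mean log2 ratio of 0.00 ± 0.33 and single libraries from -0.43 to 0.73 (permutation test, adjusted p = 0.971), so no order could be given. By counts, without scaling for length, Slc2a2 was higher, at a mean log2 ratio of 0.72. Lower members were Slc2a4, the insulin-responsive transporter of muscle and fat, at 5.83 ± 0.579 TPM, G6pc3, a ubiquitous glucose-6-phosphatase, at 5.21 ± 1.00 TPM and Slc2a8 at 1.52 ± 0.302 TPM. Hk1, Hk2 and G6pc2 were not analysed here.

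Of 17 measured glycolysis genes, 13 exceeded 10 TPM. Aldoa (aldolase A) was highest at 1692 ± 155 TPM, then Pgk1 at 899 ± 119.9 TPM and Pgam1 at 508 ± 34.4 TPM. The levels of Pgk1 and Pgam1 are uncertain. The pseudogene Pgk1-rs7 is identical to Pgk1 over 1255 bases, and Pgam1-ps2 to Pgam1 over 765 bases. Among phosphofructokinases, the muscle-type gene Pfkm, at 402 ± 15.9 TPM, exceeded the liver-type gene Pfkl 7.96-fold per kilobase in every library. Pkm exceeded Pklr, the liver and red cell pyruvate kinase, 9.64-fold (both permutation tests, adjusted p = 0.000586). The size of the Pkm ratio is uncertain, because the pseudogene Gm6560 is 98.4% identical to Pkm over 1593 bases. Eno2, the neuronal enolase, was higher than Eno1 in 11 of 12 libraries, 1.73-fold (adjusted p = 0.00113), but with the longest transcript as the length the ratio lost its significance, and Eno1 has a copy of 99.5% identity, Eno1b. Ldhb, a lactate dehydrogenase subunit, was at 6.54 ± 1.20 TPM, with a lowest, median and highest value of 4.73, 6.12 and 8.31 TPM. Its level is uncertain, because the pseudogene Gm5514 is 98.0% identical to it over 1002 bases. Ldha was not analysed here.

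Of 46 measured genes for pyruvate entry, shuttles and the citric acid cycle, 45 exceeded 1 TPM, a share close to that of all protein-coding genes, and their median was 40.8 TPM. Acly, the cytosolic enzyme that makes acetyl-CoA from exported citrate, led at 1557 ± 38.3 TPM with a CV of 2.17%, while Idh2 was at 517 ± 12.2 TPM and Mdh1 at 505 ± 29.3 TPM. Pcx, the pyruvate carboxylase through which β-cells replenish the cycle, was at 123 ± 6.13 TPM, and Glud1, glutamate dehydrogenase, at 153 ± 6.77 TPM. Idh2 exceeded its cytosolic counterpart Idh1 12.9-fold, the aspartate-glutamate carrier Slc25a12 exceeded Slc25a13 2.99-fold and Me1 exceeded Me2 2.45-fold per kilobase, each in 12 of 12 libraries (permutation test, adjusted p = 0.000586 for all 3). The level of Me1 is uncertain, because the pseudogene Gm7049 is 98.5% identical to it over 1638 bases. For the glycerol phosphate shuttle, the mitochondrial Gpd2 was at 12.0 ± 1.98 TPM and the cytosolic Gpd1 at 9.91 ± 1.46 TPM, with Gpd2 higher in 10 of 12 libraries by a mean log2 ratio of 0.27 ± 0.24 (adjusted p = 0.00314). Of the fatty acid genes, Hadh, whose loss causes excess insulin release in humans, was highest at 458 ± 22.8 TPM. Txnip, a glucose-induced inhibitor of thioredoxin, was at 3.78 ± 0.749 TPM. Prdx2 (1249 ± 57.9 TPM) and Prdx1 (232 ± 6.98 TPM) are peroxide-removing enzymes, as is catalase, whose gene Cat was at 18.9 ± 1.21 TPM.

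Of the disallowed genes, 14 of 31 were measured and 11 of these exceeded 1 TPM, with a median of 3.75 TPM against 15.0 TPM over protein-coding genes. The highest was Oat, ornithine aminotransferase, at 50.5 ± 2.20 TPM, with a lowest, median and highest value of 47.4, 49.8 and 54.6 TPM. Ndst1, an enzyme of heparan sulfate synthesis, was at 46.9 ± 2.43 TPM, Mgst1, a microsomal glutathione transferase, at 25.6 ± 1.85 TPM, Cat at 18.9 ± 1.21 TPM and Igfbp4, a binding protein of insulin-like growth factors, at 17.7 ± 3.03 TPM. These 5 genes lay above the median protein-coding gene. Lmo4 was at 8.07 ± 0.992 TPM, Acot7 at 4.80 ± 1.19 TPM, Ndrg2 at 2.70 ± 0.430 TPM, Smad3 at 2.47 ± 0.445 TPM, Tgm2 at 1.54 ± 0.477 TPM and Tst at 1.21 ± 0.292 TPM. The lowest were Maf at 0.895 ± 0.202 TPM, Nfib at 0.617 ± 0.116 TPM and Pdgfra at 0.335 ± 0.0912 TPM. The other 17 listed genes were not analysed here, so the median covers the measured members only.

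The subunits of the ATP-sensitive potassium channel headed the measured potassium channel genes per length. Its pore subunit Kcnj11 was at 396 ± 19.1 TPM, with a lowest, median and highest value of 365, 394 and 423 TPM, and its sulfonylurea receptor Abcc8 at 245 ± 18.4 TPM, with a lowest, median and highest value of 219, 244 and 279 TPM. Kcnj11 exceeded Abcc8 in 12 of 12 libraries, 1.62-fold per kilobase (permutation test, adjusted p = 0.000586), whereas by counts the longer Abcc8 was higher. They were followed by the background channel Kcnk16 at 186 ± 19.5 TPM and by Kcnh2 at 163 ± 7.38 TPM. Kcnk1, Kcnh6 and Kcnk3 lay between 40.9 TPM and 56.0 TPM. Of 32 measured potassium channel genes, 13 exceeded 10 TPM, and the median was 8.05 TPM, below that of all protein-coding genes.

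Among voltage-gated calcium channel pores, Cacna1a, which carries P/Q-type current, was the highest at 210.5 ± 13.1 TPM, with a lowest, median and highest value of 187, 209 and 239 TPM. The T-type pores Cacna1h and Cacna1g were at 52.9 ± 3.32 TPM and 48.2 ± 3.50 TPM, and the L-type pores Cacna1c and Cacna1d at 45.3 ± 1.85 TPM and 40.4 ± 2.00 TPM. Cacna1a exceeded Cacna1d 5.20-fold and Cacna1c exceeded Cacna1d 1.12-fold per kilobase, both in 12 of 12 libraries (permutation test, adjusted p = 0.000586). The β-subunit Cacnb3 was at 522 ± 23.4 TPM and exceeded Cacnb2 103-fold. The endoplasmic reticulum calcium pumps Atp2a2 and Atp2a3 were both abundant, at 822 ± 47.0 TPM and 699.9 ± 23.5 TPM, with Atp2a2 higher in all libraries by 1.17-fold per kilobase. Among inositol trisphosphate receptors, Itpr3 at 98.7 ± 6.35 TPM exceeded Itpr1 3.51-fold. Camk2b, a calcium-dependent kinase subunit, was at 216 ± 2.88 TPM with a CV of 1.72%.

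The sodium pump β-subunit Atp1b1 was at 388 ± 23.0 TPM. Gjd2, which forms the connexin gap junctions that couple β-cells, was at 346 ± 15.9 TPM, with a lowest, median and highest value of 322, 341 and 382 TPM. Genes of the pacemaker family known from the heart and neurons were also abundant, with Hcn2 at 192 ± 17.2 TPM, Hcn4 at 127 ± 6.49 TPM and Hcn3 at 38.0 ± 2.98 TPM. The sodium channel pore Scn3a was at 44.4 ± 3.71 TPM. Trpm5, a calcium-activated cation channel of mouse β-cells, was at 0.596 ± 0.203 TPM, with a lowest, median and highest value of 0.332, 0.567 and 0.889 TPM.

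**Figure D3:**
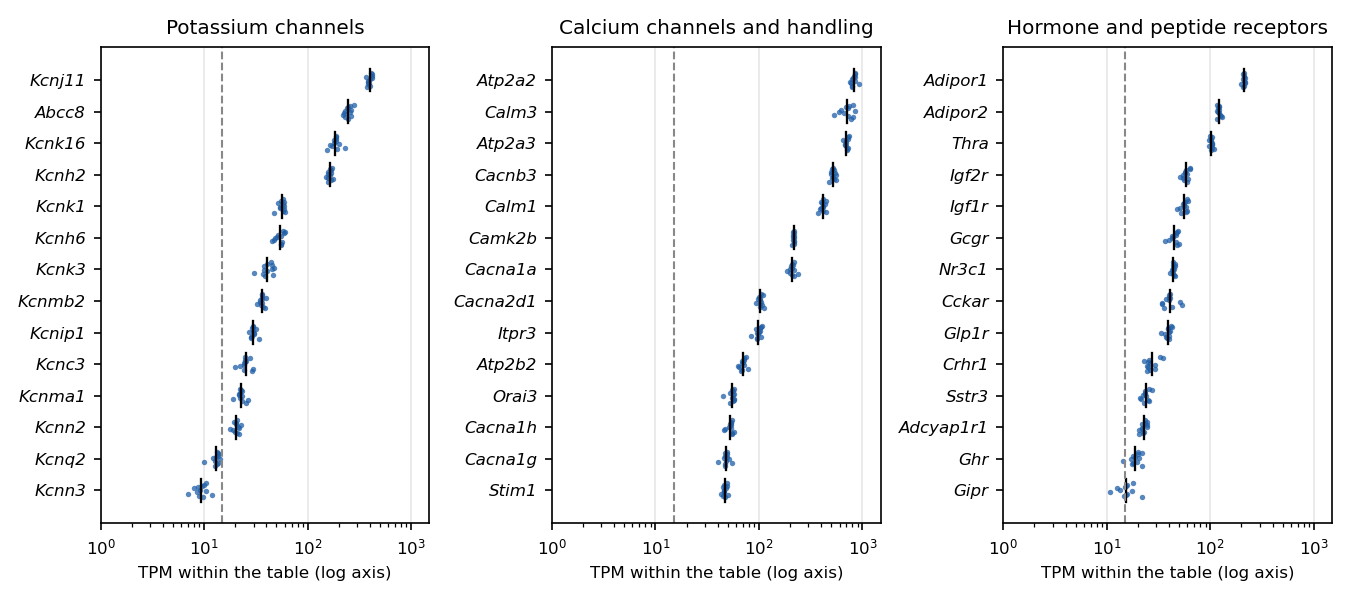
Level of the 14 most abundant potassium channel genes, calcium channel and handling genes, and hormone and peptide receptor genes in the 12 untreated libraries (horizontal log axes, TPM within the table; points, libraries; black bars, means; dashed lines, median protein-coding gene at 15.0 TPM). Kcnj11 and Abcc8 head the first panel and Atp2a2 the second, and in the third the incretin and glucagon receptor genes lie between 15.5 TPM for Gipr and 45.0 TPM for Gcgr.

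Of the receptors for hormones, 15 of 26 measured genes exceeded 10 TPM, with a median of 17.2 TPM. Both values were close to those of all protein-coding genes, of which 6035 of 10416 exceeded 10 TPM with a median of 15.0 TPM. Adipor1 and Adipor2, the adiponectin receptors, were highest, at 210.2 ± 4.62 TPM and 121 ± 3.89 TPM. The glucagon receptor Gcgr was at 45.0 ± 3.93 TPM, the cholecystokinin receptor Cckar at 40.8 ± 6.05 TPM, the glucagon-like peptide receptor Glp1r at 39.1 ± 2.46 TPM and the GIP receptor Gipr at 15.5 ± 2.85 TPM. Glp1r had a lowest, median and highest value of 33.8, 39.4 and 42.8 TPM, and Gipr had 10.7, 15.4 and 22.1 TPM. Glp1r exceeded Gipr 2.56-fold per kilobase in 12 of 12 libraries (permutation test, adjusted p = 0.000586), and Gcgr exceeded Glp1r 1.15-fold in 11 of 12 (adjusted p = 0.00217), an order that turned when counts were not scaled for length. The insulin receptor Insr, at 8.46 ± 0.630 TPM, lay below the related receptor Igf1r, at 55.8 ± 4.01 TPM, by 6.59-fold per kilobase in every library.

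Receptors for transmitters and nutrients included Drd2, the inhibitory dopamine receptor, at 87.5 ± 10.0 TPM, Adora1, an adenosine receptor, at 86.1 ± 7.27 TPM, Gabbr2 at 92.7 ± 4.74 TPM and Adra2a, the adrenergic receptor that inhibits insulin release, at 26.2 ± 2.89 TPM. The most abundant of the list was Adgrl1, an adhesion receptor, at 436 ± 20.5 TPM. Ffar1, the fatty acid receptor, was at 5.75 ± 0.888 TPM, and Gpr119, a lipid-sensing receptor, at 17.0 ± 4.28 TPM. Of the growth factor receptors, Plxnb2 was highest at 225 ± 9.85 TPM. Downstream, the catalytic protein kinase A subunit Prkaca was at 846 ± 19.4 TPM with a CV of 2.35%, and the inhibitory G protein Gnai2 at 1157 ± 43.1 TPM. The adenylyl cyclases Adcy9, Adcy8 and Adcy6 lay at 34.0 TPM, 31.7 TPM and 28.6 TPM, with Adcy8 above Adcy6 in 10 of 12 libraries by 1.11-fold per kilobase (permutation test, adjusted p = 0.0146).

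**Figure D4:**
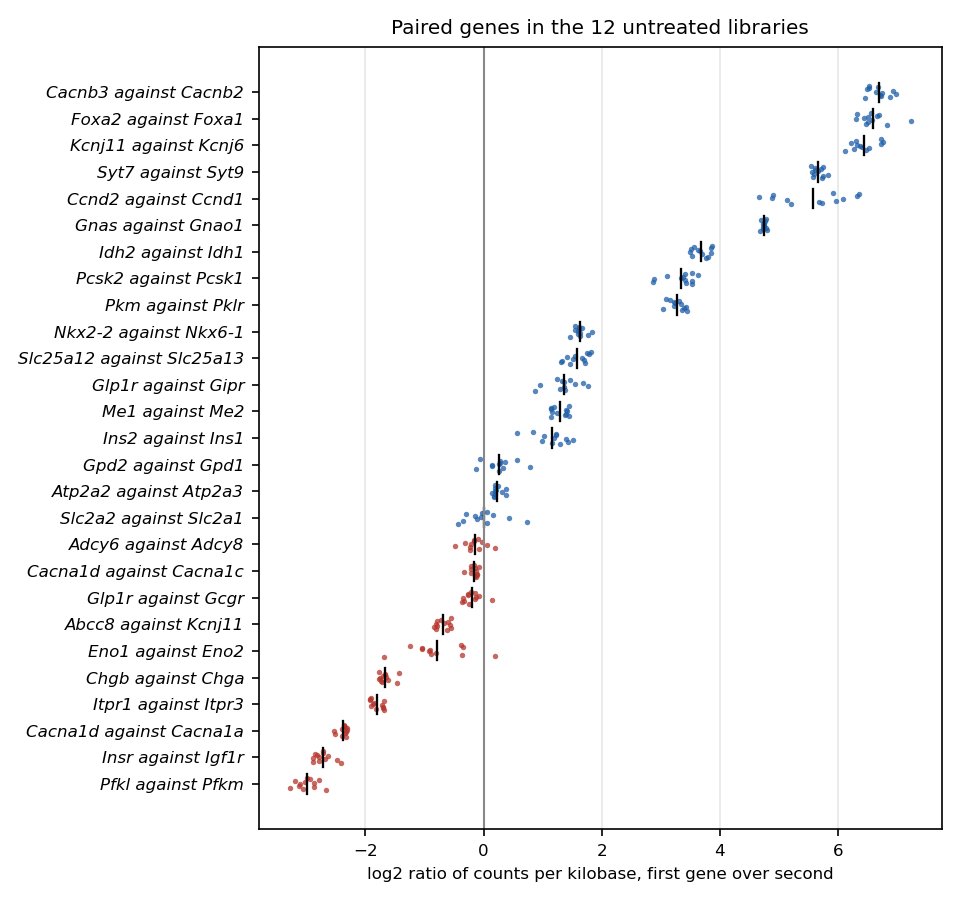
Ratio of paired genes in each of the 12 untreated libraries (horizontal axis, log2 of counts per kilobase of the first gene over the second; points, libraries; black bars, means; blue where the mean is above 0, red where it is below). Of the 27 pairs plotted, 22 keep the same order in all libraries, and Slc2a2 against Slc2a1 straddles the line at 0.

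In all, 36 pairs of related or functionally linked genes were listed, 30 had both members in the table, and 29 had a mean log2 ratio that differed from 0 (permutation test over libraries with adjustment over the 30 pairs, adjusted p under 0.05). The smallest p that the 12 libraries allow is 0.000488. The same order held in all 12 libraries for 25 of the 30. In 19 of the 29 the gene written first in the list was higher and in 10 the gene written second. Over the means of the 4 experiment sets, which allow no p below 0.125, none of the 30 passed.

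The labelled cell type was checked against marker genes. Of 17 β-cell markers, 15 were measured, with a median of 124 TPM, and 13 exceeded 10 TPM. The exceptions were Iapp and Trpm5, whose values are given above. Of 10 α-cell markers, 4 were measured and all 4 exceeded 100 TPM, among them Gcg (398 TPM), Slc7a2 (146 ± 8.43 TPM) and Gc (101 ± 12.0 TPM), and the sum of the 4 ranged from 731 to 822 TPM over the libraries. Irx1 and Irx2 were not analysed here. Etv1 was at 50.1 ± 2.07 TPM and Fev at 8.16 ± 1.54 TPM, and Sstr3, the single measured δ-cell marker, at 23.7 ± 1.76 TPM. Hormone genes of more than 1 islet cell type were thus measured in each library, and whether single cells held both was not measured.

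Few markers of non-endocrine cells were measured, apart from neuronal ones. The acinar list had 1 measured gene of 12, and the ductal list had 3 of 8, Krt7 at 17.4 ± 1.22 TPM, Car2 at 2.59 ± 0.691 TPM and Sox9 at 1.98 ± 0.584 TPM. Of the fibroblast and endothelial lists, Pdgfra was at 0.335 ± 0.0912 TPM, Kdr at 0.661 ± 0.304 TPM and Esam at 18.01 ± 1.87 TPM, and none of 9 immune markers was measured. Krt7 and Esam lay above the median protein-coding gene. By contrast, 11 of 12 neuronal markers were measured and 10 exceeded 10 TPM. Syp (synaptophysin) was at 361 ± 19.9 TPM, Gap43 at 208 ± 12.0 TPM, Elavl4 at 94.0 ± 6.79 TPM, Stmn2 at 76.8 ± 1.41 TPM, Tubb3 at 38.4 ± 2.58 TPM and Map2 at 25.6 ± 0.913 TPM, while the neurofilament genes Nefl, Nefh and Nefm lay between 5.77 TPM and 16.5 TPM. Several of these genes, such as Syp and Snap25, are also part of the secretory apparatus of endocrine cells.

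Of 21 measured cell cycle genes, 17 exceeded 10 TPM, led by the kinase Cdk4 at 329 ± 20.4 TPM, and including Pcna at 164 ± 8.16 TPM, Mcm6 at 128 ± 3.99 TPM, Top2a at 106 ± 6.09 TPM, Ccna2 at 64.1 ± 3.68 TPM and Cdk1 at 61.0 ± 3.49 TPM. The proliferation marker Mki67 and the mitotic cyclin Ccnb1 were below the median protein-coding gene, at 5.59 ± 0.836 TPM and 2.17 ± 0.873 TPM. Ccnb1 has a pseudogene of 99.2% identity over 1287 bases, Ccnb1-ps, so its level is uncertain. The same holds for Pcna, whose pseudogene Pcna-ps2 has 99.2% identity over 781 bases. The inhibitors Cdkn1b and Cdkn2c were at 171 ± 8.47 TPM and 147 ± 9.05 TPM, and Men1, the gene of multiple endocrine neoplasia, at 103 ± 3.26 TPM. Of the D-type cyclins, Ccnd3 was at 29.2 ± 1.91 TPM, Ccnd2 at 23.6 ± 1.29 TPM and Ccnd1 at 0.519 ± 0.216 TPM. Ccnd2 exceeded Ccnd1 47.5-fold per kilobase in 12 of 12 libraries (permutation test, adjusted p = 0.000586), and 1100 of the 4709 exon bases of Ccnd1 overlap another gene. Among stress genes, Atf4 was at 365 ± 11.3 TPM, Xbp1 at 252 ± 9.99 TPM, Herpud1 at 149 ± 10.7 TPM and Ddit3 (CHOP) at 26.9 ± 2.92 TPM. Of the activity-induced immediate early genes, Jund (436 ± 37.3 TPM) and Junb (124 ± 7.32 TPM) exceeded 100 TPM, whereas Nr4a1, Npas4 and Nr4a3 stayed at 0.981 TPM, 0.701 TPM and 0.603 TPM.

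The spread between libraries fell with the level. Ranked genes below 1 CPM had a median CV of 33.8%, against 21.7% from counting error alone, and those of 5 to 20 CPM had 11.2%. From 100 to 1000 CPM the median CV was 4.41%, with 1.40% from counting, and above 1000 CPM it was 3.87%. Prpf8, a core splicing factor, was the steadiest protein-coding gene above 100 CPM, at 1414 ± 14.3 CPM with a CV of 1.01%, followed by Ubqln2 at 1.24% and Sin3b at 1.49%. At the other end, among the 2191 protein-coding genes with at least 100 CPM, Ins1 ranked 8 by CV, Pcsk1 13, Slc2a2 22, Nucb2 24 and Ins2 48, whereas Gcg ranked 767 and Npy 777. Lars2, a mitochondrial tRNA synthetase gene, had 26.8% at 381 ± 102 CPM, with 178, 384 and 564 CPM as lowest, median and highest value.

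Several of the most variable genes belong to multi-copy families. Of the 1806 pseudogenes of the table, 1659 matched a protein-coding transcript in sequence at 90% identity over at least 50% of their length. Pseudogenes held 5.74% to 6.49% of all counts but 26.3% to 29.0% of the length-scaled total. Of the 20 most variable protein-coding genes with at least 5 CPM, 13 had such a match, and 26 of 672 genes with a match exceeded a CV of 30% against 35 of 7308 genes without, although the median CV was 6.15% with a match and 7.16% without. Rpl36a had 0.0355, 3.75 and 162 CPM as its lowest, median and highest value, a CV of 216%. Its sum with 3 matching pseudogenes came to 339 CPM with a CV of 9.90%. Rplp0 had 5.65 CPM with a CV of 72.2% alone and 630 CPM with a CV of 4.37% in such a sum. The reference gene Ppia had 16.7 CPM with a CV of 84.0% alone and 1447 CPM with a CV of 5.64% in the sum. Rplp0 and Ppia are a small part of their sums, so the CVs of these sums largely describe the pseudogenes. They do not show whether reads moved between copies. Gapdh itself was not analysed here, but 37 pseudogenes that match it summed to 3037 ± 169 CPM. Over the 67 ribosomal protein genes with a match, the median level went from 130.5 to 323 CPM with the pseudogenes added and the sum had the smaller CV in 59. Over all 689 matched genes with at least 5 CPM, predicted genes included, the sum had the smaller CV in 539. Adding counts can only raise a level, so these shares are no trait of ribosomal genes. Copies share sequence with their gene. The levels of multi-copy genes in the ranking and in the gene groups, such as Ubb, Eef1a1 and Fau, are therefore uncertain.

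Few genes differed between the 4 experiment sets. By edgeR's quasi-likelihood F test, 3 of 12304 genes tested (0.0244%) had an adjusted p under 0.05, and 773 (6.28%) had an unadjusted p under 0.05. The 3 genes were Psme2, Rpl15 and Psme2b, none of them in the 22 gene lists and each with a copy of at least 99.4% identity over part of its transcript. Psme2 and Psme2b encode the β-subunit of the interferon-inducible proteasome activator and are 99.4% identical over 794 bases. Psme2 (chr14:55587441-55591113) was at 25.4, 32.9, 32.5 and 11.1 CPM in sets 1 to 4 (adjusted p = 0.00453), with 7.94, 29.7 and 34.9 CPM as its lowest, median and highest library. Psme2b (chr11:48945354-48946190) was at 26.3, 23.8, 22.6 and 39.7 CPM (adjusted p = 0.0340), so that it was highest in the set in which Psme2 was lowest. Their sum was 51.6, 56.7, 55.1 and 50.9 CPM in the 4 sets, with a CV of 5.54% over the 12 libraries against 37.6% and 27.0% for the single genes.

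Rpl15 (chr14:18267823-18271391), 1 of the 83 cytosolic ribosomal protein genes of the table, had 1.39, 3.48 and 105 CPM as its lowest, median and highest value (adjusted p = 0.0193). Replicates 7 and 8, at 62.3 and 105 CPM, both came from set 3, in which replicate 9 was as low as the other sets. The 8 pseudogenes that match Rpl15 summed to 175 to 218 CPM in each library. Leaving out 1 library at a time gave 0 to 5 calls, namely 0 without replicate 10 (752 at an unadjusted p under 0.05), 1 without replicate 4, 6 or 8 or without column C11 or C12, and 5 without replicate 2 or 3. Psme2 lost its call in 1 of these 12 fits, with an adjusted p of up to 0.0688, whereas Psme2b and Rpl15 each lost it in 8, with an adjusted p of up to 0.282 and 0.215. Without set 4, 0 genes were called at an adjusted p under 0.05 by edgeR, with 932 genes at an unadjusted p under 0.05, and without set 2 or set 3 1 gene was called. DESeq2's likelihood ratio test called 30 of 12303 genes (0.244%), which included the 3 genes above. No gene of the hormone, channel, receptor, metabolic or disallowed gene lists passed edgeR's test, and for Ins1, whose set means were highest in set 1, the adjusted p was 0.778.

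**Figure D5:**
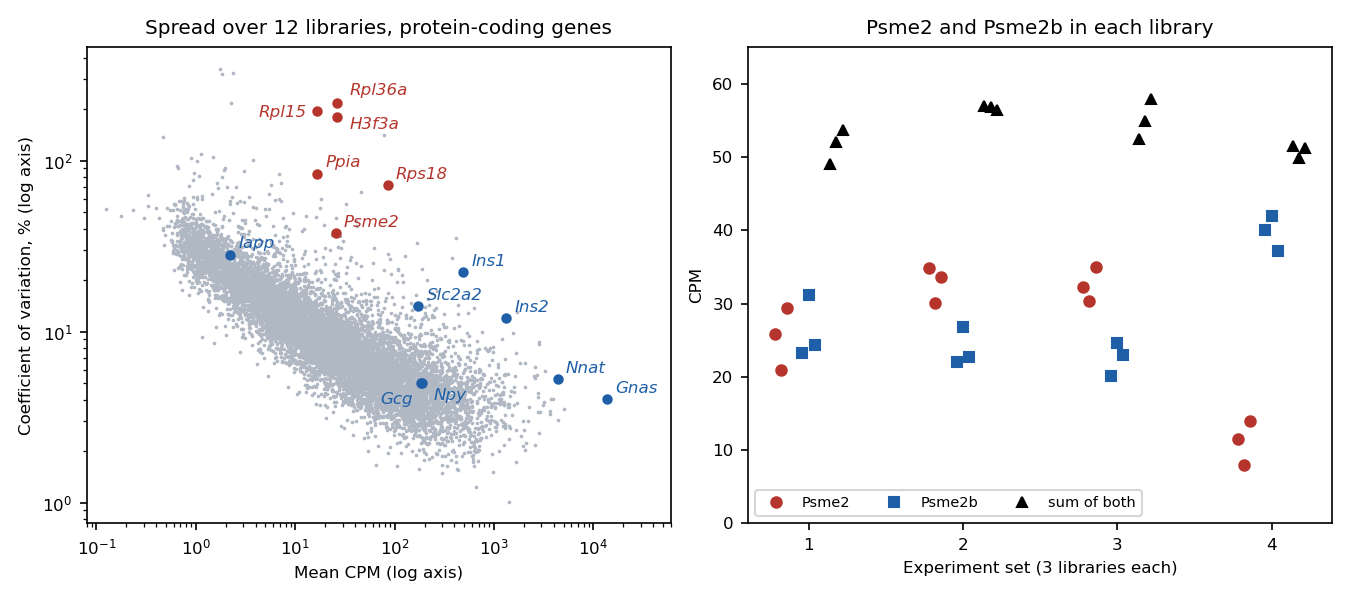
Left, coefficient of variation over the 12 untreated libraries against mean CPM for protein-coding genes (both log axes; grey, single genes; blue, named β-cell and abundant genes; red, multi-copy genes). Right, CPM of Psme2, Psme2b and their sum in the 3 libraries of each experiment set (linear axis from 0). Ins1, Ins2 and Slc2a2 lie above genes of like level in the left panel, and in the right panel Psme2 lies at 7.94 to 14.02 CPM in set 4 while the sum stays between 49.1 and 57.9 CPM.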

How the data were processed

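RNA was measured in 12 untreated MIN6 libraries. Per the labels and the methods, the authors used bcl2fastq 2.20, Trimmomatic 0.39, HISAT2 2.1.0 on GRCm38 and htseq-count of HTSeq 0.9.1, and deposited raw counts per gene and library. No source used here gives the strand setting or the annotation release used for counting. The table also holds columns of the authors' own comparison (log2 CPM, p-values, fold changes), which were not used. The number of columns of per-sample values that matched no sample was 0. Of 12310 genes, 12293 were above 0 in every library, so that genes with few or no reads lie largely outside the table.

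CPM were computed over each library's total. Length-scaled values (TPM) used merged exons of GENCODE mouse release 21. Total counts of 12590476 to 32360171 set the precision, and intervals from counting cover counting error only. Experiment sets were compared with edgeR 4.0.16 (R 4.3.3; TMM, filterByExpr with a minimum count of 10, quasi-likelihood F test, Benjamini-Hochberg adjustment). Ratios of paired genes, with 0.5 added to each count, were tested over libraries by a two-sided permutation test (scipy 1.17.1, 4096 sign flips). Pseudogenes were matched to transcripts with blastn 2.17.0. DESeq2 1.42.0, other scalings, filters and lengths, and leaving out libraries or sets were tried as alternatives. Places within sets 1 to 3 did not pair the libraries (correlation of deviations from -0.05 to 0.04). On simulated counts for 12305 genes of the 4-set comparison, all 100 genes changed 1.5-fold and all 100 changed 2-fold were recovered, with 13 false calls. The simulated spread between libraries was smaller than the common biological coefficient of variation of 0.098 in the real libraries. The changed genes were also drawn only from those with higher counts. This recovery is therefore not the power of the real comparison.

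The genes named are the 20 most abundant, the 5 highest of each list, all measured hormone, glucose uptake and disallowed genes, the paired genes and the genes called between sets. Other members of the lists, and the genes named for their spread or their copies, were chosen after their values were seen. Some genes that the rule names are not reported here. The lists and comparisons were chosen with earlier results of these data known.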

Additional observations from a re-analysis of the deposited data

How the results depend on the processing

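The set of the libraries is a reading of their labels, all values come from 1 cell line, and levels per length depend on the gene model. With the longest transcript as the length, 16 of the 20 most abundant genes stayed among the first 20, Nnat ranked 2 and Cpe 3, and the TPM of 376 of 564 named genes moved by more than 1 SD, against 0 with TMM scaling or when a library was left out. The count of 3 genes that differed between sets was 3 with RLE factors, library totals, no filter or a mean of at least 1 CPM, and 30 by DESeq2 (863 at an unadjusted p under 0.05). Within sets 1 to 3 it was 0 without and 0 with the place in the set as a replicate block (932 and 876 at an unadjusted p under 0.05). It ranged from 0 to 5 when 1 library was left out, and was 3, 1, 1 and 0 without sets 1, 2, 3 and 4, alternatives added after seeing the data. By edgeR, leaving out 1 library ended the call of Psme2 in 1 of 12 fits (adjusted p = 0.0688 without replicate 10), and that of Psme2b and Rpl15 in 8 of 12 each. For Slc2a2 against Slc2a1 the mean log2 ratio was -0.054 with the longest transcript, from -0.063 to 0.043 when 1 library was left out, and 0.72 without length scaling. Without length scaling, Abcc8 over Kcnj11 turned to 0.45 and Glp1r over Gcgr to 0.95. Eno1 over Eno2 was -0.13 with the longest transcript (permutation test, adjusted p = 0.387). Over set means 0 of 30 pairs passed, as 4 means allow no p below 0.125. The cause of these changes was not tested.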

Other observations

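Levels of 12 β-cell markers with at least 5 CPM were compared with that of Ins2 across the 12 untreated libraries, on the log2 CPM scale. Among these 12 markers, Slc2a2, the glucose transporter gene, had the highest correlation with Ins2 over the libraries. Its Pearson's r was 0.924 (permutation test, p = 7e-05, adjusted p = 0.00084) and its Spearman's rho was 0.867 (permutation test, adjusted p = 0.0072). Genes outside the 12 markers were not compared with Ins2, so whether such an r is particular to Slc2a2 was not tested. Without the 2 libraries farthest from the median of Ins2, replicates 10 and 8, r was 0.853. For deviations from the means of the experiment sets r was 0.924, and a set of 3 libraries is too small for a value of its own. Pcsk1 had r = 0.754 (permutation test, adjusted p = 0.0349) but rho = 0.497 (permutation test, adjusted p = 0.171), and r was 0.508 without the same libraries but 0.935 for deviations from set means, on which measure it was above Slc2a2. Mafa had r = 0.709 (permutation test, adjusted p = 0.0349) and rho = 0.685 (permutation test, adjusted p = 0.106), and r was 0.666 without them and 0.690 for deviations from set means. Glp1r had r = -0.42 (permutation test, adjusted p = 0.232). All values come from the same libraries and share their depth, and r of Slc2a2 with the log2 library total was 0.248. In each library, the deviations of genes from their mean over libraries were also correlated with log2 transcript length. That r ranged from -0.195 to 0.173, was highest in replicate 10 and was -0.137 in replicate 8. With GC content, r ranged from -0.282 to 0.230. Whether these differences add to the correlations with Ins2 was not tested. The alternatives without the 2 libraries and by set means were chosen after seeing the data.

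Among mitochondrially encoded genes, 3 of 15 were measured, which were mt-Rnr1, mt-Rnr2 and mt-Co3, between 10.6 and 1158 TPM. Their summed level ranged from 1683 to 2424 TPM over the libraries. The level of mt-Co3, the lowest of them, is uncertain, because the pseudogene Gm28437 is identical to it over 783 bases.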
